A study of Homo sapiens with 4 samples.

Results

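The genes described here are the 5 subunits of the muscle acetylcholine receptor (CHRNA1, CHRNB1, CHRND, CHRNG and CHRNE) and 5 genes that place the receptor at the neuromuscular junction (AGRN, LRP4, MUSK, DOK7 and RAPSN). They were selected by gene symbol, 10 genes of the 39323 in the expression tables, by a rule that names no expression value. Expression was measured by RNA-seq in RD and JR1, established human cell lines of fusion-negative rhabdomyosarcoma, a tumor of the skeletal muscle lineage. The cells carried either a non-targeting hairpin (shSCR, genotype listed as WT) or 1 hairpin against SKP2 (the shSKP2.2 construct, listed as SKP2 knockdown and called shSKP2 here), delivered in both cases by a lentiviral pLKO.1-puro vector with puromycin selection, in serum-containing DMEM. SKP2 is the substrate-binding subunit of an E3 ubiquitin ligase, and the comparison of shSKP2 with shSCR was made to follow myogenic differentiation, senescence and tumor growth after its depletion. The series had 4 libraries, 1 per line and condition, so that no value below has a replicate error and no difference has a replicate check or a p-value. The cells were monocultured, with no nerve, were selected as a pool with no cloning step described, and untransduced cells or a second SKP2 hairpin were not analysed here.

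The muscle receptor is a ring of α1 (present as a pair), β1, δ and a further subunit that depends on age. Fetal and denervated muscle use γ, encoded by CHRNG, while innervated adult muscle replaces it by ε, encoded by CHRNE. The motor nerve releases agrin, which binds LRP4 on the muscle fiber and thereby activates the receptor tyrosine kinase MuSK. The adaptor Dok-7 binds MuSK from the inside of the cell and sustains its activity, and rapsyn links receptors into dense clusters beneath the nerve terminal. Loss of function of most of these genes is a known cause of congenital myasthenic syndromes.

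Values are TPM, a level per transcript length that sums to the same total in each library. The number of reads is not kept in TPM, so the depth of the libraries and the counting error are unknown. A change was computed as log2 of the ratio of TPM + 1, which understates the change of genes near 1 TPM. The 12985 genes whose TPM averaged 1 or more across the libraries were taken as tested, and a tested gene at 2-fold or more on this scale was counted as changed. Of the 10 members, 9 were tested, and all 9 were above 1 TPM in every library. CHRNE, with a mean below 1 TPM, was not tested.

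SKP2 itself stood at 92.8 TPM with shSCR and 7.40 TPM with shSKP2 in RD, and at 46.5 and 2.72 TPM in JR1 (log2 changes -3.48 and -3.67). Of the total, short structural RNAs such as the RN7SL genes made up 49.99% in RD shSCR, 62.2% in RD shSKP2, 57.0% in JR1 shSCR and 64.8% in JR1 shSKP2. The tested gene at the median had a log2 change of -0.27 (RD) and -0.21 (JR1), and of 0.10 and 0.034 once the 671 short RNA genes were removed and the rest rescaled to the same total. Values with the short RNAs removed are therefore given beside those from the deposited TPM for members whose sign or call differs between the scalings. Plain ratios of TPM between genes of 1 library, with nothing added, do not depend on this scaling.

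CHRNA1 was the most abundant member in all 4 libraries. Its gene, at chr2:174747592-174764472 on the minus strand (GRCh38), encodes the α1 subunit that carries the main part of the acetylcholine binding site. CHRNA1 stood at 196 TPM in RD shSCR, 314 TPM in RD shSKP2, 284 TPM in JR1 shSCR and 425 TPM in JR1 shSKP2. The shSKP2 library was the higher one in each line, and both JR1 libraries were above the RD library of the same condition. These values lay above those of 97.5% of tested genes in RD shSCR and 99.3% in JR1 shSKP2.

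CHRNB1 (chr17:7445061-7457710, plus strand), which encodes β1, was the steadiest subunit among those tested. Its TPM was 34.5 in RD shSCR and 29.3 in RD shSKP2, and 38.3 in JR1 shSCR and 34.8 in JR1 shSKP2. The highest of the 4 values was 1.31 times the lowest, against 2.16 times for CHRNA1 and 5.43 times for CHRND.

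CHRND (chr2:232526160-232537907, plus strand), the gene of the δ subunit, had the widest range of all 10 members in deposited TPM. It was listed at 17.2 TPM in RD shSCR, 9.76 TPM in RD shSKP2, 53.0 TPM in JR1 shSCR and 34.6 TPM in JR1 shSKP2. Every JR1 value exceeded every RD value, and within each line the shSKP2 library was the lower one. CHRND therefore sat on the other side of its control from CHRNA1 in both lines. With the short RNAs removed the range of DOK7, 3.92 to 28.6 TPM, was wider than that of CHRND, 25.8 to 123 TPM.

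CHRNG (chr2:232539692-232548115, plus strand), for the fetal γ subunit, begins 1784 bases after the end of CHRND on the same strand. CHRNG was at 3.20 TPM in RD shSCR, 3.93 TPM in RD shSKP2, 8.04 TPM in JR1 shSCR and 7.57 TPM in JR1 shSKP2. In deposited TPM the lines were separated and the conditions within a line were close, unlike those of its neighbour CHRND. With the short RNAs removed CHRNG was at 6.40 and 10.4 TPM in RD and at 18.7 and 21.5 TPM in JR1. CHRND was then at 34.4 and 25.8 TPM in RD and at 123 and 98.4 TPM in JR1. CHRNG shares 4233 bases with TIGD1 on the opposite strand, at 4.81 to 7.37 TPM. Whether reads were counted by strand is not given in the sources used here.

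CHRNE (chr17:4897771-4905019, minus strand), for the adult ε subunit, was the lowest member in all 4 libraries. It stood at 0.590 TPM in RD shSCR, 0.490 TPM in RD shSKP2, 0.380 TPM in JR1 shSCR and 0.360 TPM in JR1 shSKP2. C17orf107 lies within the span of CHRNE on the opposite strand and was at 0.560 to 1.04 TPM, and MINK1, also on the opposite strand, shares 291 bases with it and was at 23.05 to 33.4 TPM, so part of these low values cannot be assigned with certainty. No ε level above 1 TPM was listed in the deposited TPM of either line or condition, and with the short RNAs removed the levels were 1.18 and 1.297 TPM in RD and 0.884 and 1.02 TPM in JR1.

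**Figure D1:**
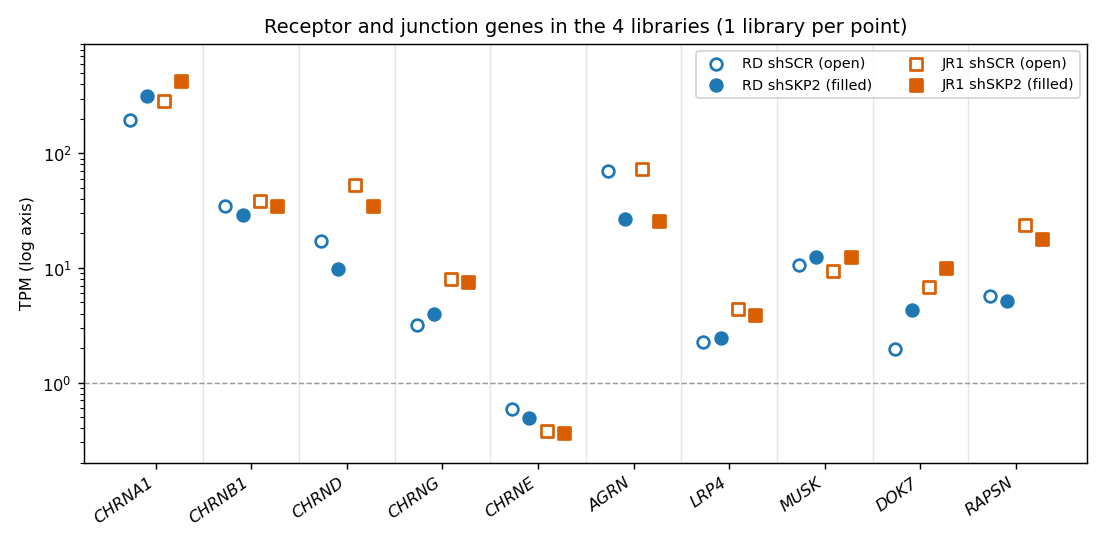
TPM (log axis) of the 10 members, with blue circles for RD, orange squares for JR1, open symbols for shSCR and filled symbols for shSKP2, and each point a single library. CHRNA1 lies between 196 and 425 TPM, CHRNE lies below the dashed line at 1 TPM in all 4 libraries, and CHRND, DOK7 and RAPSN separate the lines most.

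Fetal γ exceeded adult ε in every library. The ratio of CHRNG to CHRNE TPM was 5.42 in RD shSCR and 8.02 in RD shSKP2, and 21.2 in JR1 shSCR and 21.0 in JR1 shSKP2. γ thus made up 84.4% and 88.9% of the summed γ and ε TPM in RD and 95.5% in both JR1 libraries. On the scale of log2(TPM + 1), γ was above ε by 1.401 and 1.73 in RD and by 2.71 and 2.66 in JR1. These log2 values depend on the scaling. With the short RNAs removed they were 1.76 and 2.31 in RD and 3.39 and 3.48 in JR1. The ratio was larger in JR1 than in RD under both hairpins, and no switch towards ε was seen in the shSKP2 library of either line. Because the denominator was below 1 TPM in every library as deposited, the ratio rests on small values of CHRNE and its precision is unknown.

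The 5 subunit transcripts were far from the proportions of the assembled receptor, in which α1 is present as a pair. CHRNA1 took 78.0% of their summed TPM in RD shSCR and 74.0% in JR1 shSCR, and 87.8% and 84.6% in the shSKP2 libraries. The share of CHRND was 6.83% in RD shSCR and 2.73% in RD shSKP2, and 13.8% in JR1 shSCR and 6.90% in JR1 shSKP2. CHRNB1 took between 6.92% and 13.7%, CHRNG between 1.10% and 2.09%, and CHRNE at most 0.234%. Summed over the subunits, TPM was 252 in RD shSCR, 357 in RD shSKP2, 384 in JR1 shSCR and 502 in JR1 shSKP2, so that the sum mainly follows CHRNA1.

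The ratio of α1 to δ transcripts gave the clearest difference between conditions within the receptor. CHRNA1 over CHRND was 11.4 in RD shSCR and 32.2 in RD shSKP2, and 5.36 in JR1 shSCR and 12.3 in JR1 shSKP2. CHRNA1 over CHRNB1 was 5.69 and 10.7 in RD and 7.43 and 12.2 in JR1. Both ratios were higher in the shSKP2 library of each line, whatever the scaling of the libraries. δ over γ was lower there, at 5.37 and 2.48 in RD and 6.59 and 4.57 in JR1.

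None of the 4 tested subunits reached 2-fold between conditions. In RD, 1.08% of all tested genes were counted as higher and 7.37% as lower, and in JR1 1.78% and 9.05%. CHRNA1 had log2 changes of 0.67 in RD and 0.58 in JR1, above those of 97.6% and 94.6% of tested genes. CHRND stood at -0.76 and -0.60, with 14.6% and 22.6% of tested genes lower still. In deposited TPM the values of the other subunits were small. They were -0.23 and -0.14 for CHRNB1, 0.23 and -0.077 for CHRNG, and -0.094 and -0.021 for the untested CHRNE. With the short structural RNAs removed, CHRNA1 passed 2-fold in RD at 1.08 (0.87 in JR1) and CHRND remained below its controls at -0.40 and -0.32. CHRNB1, at 0.16 and 0.15, and CHRNE, at 0.076 and 0.10, then had the other sign in both lines, as did CHRNG in JR1 at 0.19. In RD CHRNG was then further above its control than as deposited, at 0.62.

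AGRN was the only member that fell 2-fold in both lines. The gene, at chr1:1020102-1056119 on the plus strand, encodes agrin, a large heparan sulfate proteoglycan of basement membranes of which only the form spliced with the neural exons strongly activates MuSK. AGRN was at 69.8 TPM in RD shSCR, 26.9 TPM in RD shSKP2, 73.0 TPM in JR1 shSCR and 25.8 TPM in JR1 shSKP2. The controls of the lines were within 1.05 times of each other, and both shSKP2 libraries were far below them, at 38.6% of the control TPM in RD and 35.4% in JR1.

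The log2 changes of AGRN were -1.34 in RD and -1.46 in JR1. They lay below 97.1% and 96.9% of tested genes, and 4.79% of tested genes fell 2-fold in both lines (0.539% rose 2-fold in both). With the short structural RNAs removed the values were -0.96 in RD, just inside the 2-fold limit, and -1.20 in JR1. Gene TPM do not separate splice forms, so the amount of the neural form was not measured.

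LRP4 (chr11:46854715-46918550, minus strand), the agrin receptor, was among the lowest members. It was at 2.26 TPM in RD shSCR, 2.44 TPM in RD shSKP2, 4.38 TPM in JR1 shSCR and 3.85 TPM in JR1 shSKP2. JR1 was the higher line, and the conditions of a line were close, with log2 changes of 0.078 (RD) and -0.15 (JR1) as deposited and 0.43 and 0.094 with the short RNAs removed. Agrin transcripts exceeded those of LRP4 by 30.9 times in RD shSCR and 16.7 times in JR1 shSCR, and by 11.04 and 6.71 times in the shSKP2 libraries. LRP4-AS1, on the opposite strand, shares 19702 bases with the gene and was at 0.290 to 0.620 TPM.

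MUSK (chr9:110668189-110806633, plus strand), the kinase of the pathway, varied little in deposited TPM. It was at 10.54 TPM in RD shSCR, 12.5 TPM in RD shSKP2, 9.48 TPM in JR1 shSCR and 12.4 TPM in JR1 shSKP2. The shSKP2 library was the higher one in both lines, by 0.23 and 0.35 on the log2 scale, and the highest of the 4 values was 1.32 times the lowest. Its levels with the short RNAs removed were 21.1 and 33.1 TPM in RD and 22.1 and 35.2 TPM in JR1, and its changes 0.63 and 0.65. The ratio of AGRN to MUSK was 6.63 and 7.70 in the shSCR libraries of RD and JR1 and 2.15 and 2.08 in the shSKP2 libraries. This ligand to kinase ratio separated the conditions in both lines and hardly differed between the lines.

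DOK7 (chr4:3463306-3501482, plus strand), which encodes the cytoplasmic activator of MuSK, was the member with the highest positive change in RD. It was at 1.96 TPM in RD shSCR, 4.29 TPM in RD shSKP2, 6.79 TPM in JR1 shSCR and 10.1 TPM in JR1 shSKP2. Each shSKP2 library was above its control, and each JR1 library was above both RD libraries. The log2 changes were 0.84 in RD and 0.51 in JR1, higher than those of 98.5% and 93.5% of tested genes but inside the 2-fold limit. In RD the TPM ratio itself was 2.19, and the log2 change passed the limit at 1.33 with the short RNAs removed, at 1.09 with 0.1 added in place of 1, and at 1.11 after centring on the median gene. MUSK exceeded DOK7 by 5.38 and 2.92 times in RD and by 1.396 and 1.23 times in JR1.

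RAPSN (chr11:47437764-47449136, minus strand), which encodes the receptor-clustering protein rapsyn, differed more between lines than between conditions. It was at 5.66 TPM in RD shSCR, 5.15 TPM in RD shSKP2, 23.8 TPM in JR1 shSCR and 17.9 TPM in JR1 shSKP2. The lowest JR1 value was above both RD values, and the log2 changes with shSKP2 were -0.11 in RD and -0.39 in JR1, or 0.25 and -0.12 with the short RNAs removed. Relative to rapsyn, CHRNA1 transcripts were more abundant in the shSKP2 libraries, at 34.7 and 60.9 times in RD and 11.95 and 23.8 times in JR1.

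Counted together, 1 of the 9 tested members fell 2-fold in each line and 0 rose, beside 7.37% of tested genes lower and 1.08% higher in RD and 9.05% lower and 1.78% higher in JR1. CHRNA1, MUSK and DOK7 were higher in both lines at any size, a direction held by 17% of tested genes. CHRNB1, CHRND, AGRN and RAPSN were lower in both, as were 61.1% of tested genes, and CHRNG and LRP4 had opposite signs. Over the tested members the log2 median came to 0.078 in RD and -0.14 in JR1, beside -0.27 and -0.21 for all tested genes. At a limit of 1.5-fold, CHRNA1 and DOK7 passed upwards in RD and CHRND and AGRN downwards, beside 3.2% and 23.2% of tested genes, and in JR1 0 members passed upwards and CHRND and AGRN downwards, beside 5.31% and 23.4%. With the short RNAs removed all 10 members passed the minimum level, 2 were 2-fold higher in RD (CHRNA1 and DOK7) and 0 lower, and in JR1 0 were higher and 1 (AGRN) lower. The matching shares of tested genes were then 3.79% higher and 3.41% lower in RD and 4.72% and 6.72% in JR1. On that scaling 7 members were higher in both lines, beside 43.7% of tested genes, and 2, CHRND and AGRN, lower, beside 31.9%.

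The order of the members was led by CHRNA1 and closed by CHRNE in every library. AGRN was the second of the 10 in both shSCR libraries, the third in RD shSKP2 and the fourth in JR1 shSKP2. CHRNB1 took the second place in both shSKP2 libraries, where it exceeded the next member by only 1.09 times in RD (AGRN) and 1.00 times in JR1 (CHRND). Without replicates, neighbours at such ratios cannot be ordered. The widest steps in the order were those from CHRNA1 to the member after it in the shSKP2 libraries, 10.7 and 12.2 times, and that from LRP4 down to CHRNE in JR1, 11.5 times in shSCR and 10.7 times in shSKP2.

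Several receptor and clustering genes, though not all members, were higher in JR1 under both hairpins. In shSCR, 4 of the 9 tested members were 2-fold or more higher in JR1 and 0 lower, beside 3.44% and 6.5% of all tested genes. These were RAPSN (log2 difference 1.90), CHRND (1.57), DOK7 (1.396) and CHRNG (1.11). In shSKP2, 3 were higher and 0 lower, beside 2.7% and 5.39% of tested genes, with 1.73 for CHRND, 1.62 for RAPSN and 1.07 for DOK7, while CHRNG was at 0.80. CHRND, RAPSN and DOK7 were 2-fold or more higher in JR1 under both hairpins, as were 1.71% of tested genes. These line comparisons use the same 4 libraries as the comparisons of conditions.

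LRP4 and CHRNA1 were also higher in JR1, at 0.72 and 0.53 in shSCR and 0.50 and 0.44 in shSKP2, inside the limit. CHRNB1, AGRN and MUSK differed little between the lines, with log2 differences from -0.14 to 0.24. CHRNE was at -0.20 in shSCR and -0.13 in shSKP2, with 1 TPM added to values below 1 TPM. Its plain TPM in JR1 was 64.4% of that in RD in shSCR and 73.5% in shSKP2. Removal of the short RNAs turned MUSK from -0.14 to 0.063 in shSCR and from -0.014 to 0.085 in shSKP2, and AGRN in shSKP2 from -0.059 to 0.041. As deposited, the median gene was lower in JR1, at -0.23 in shSCR and -0.17 in shSKP2. The higher JR1 values ran against this shift of the whole table. The median was -0.038 and -0.095 with the short RNAs removed, and 0.043 and -0.043 with protein-coding genes only. With the short RNAs removed LRP4 passed the limit in shSCR as well, at 1.02, and 5 of the 10 members were then higher in JR1 and 0 lower, beside 5.74% and 5.09% of tested genes.

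The labelled lineage was checked against 10 markers of skeletal muscle, of which 7 or 8 reached 1 TPM in each library. MYOD1 was at 87.0 to 131 TPM and CDH15 at 47.1 to 78.1 TPM, while MYF5 was listed at 0 in all 4 libraries. DES was at 39.3 TPM with shSCR and 43.4 TPM with shSKP2 in RD. In JR1 it was lower with shSKP2, at 51.3 and 35.97 TPM (log2 -0.50, or -0.22 with the short RNAs removed). The summed level of the list was 220 TPM in RD shSCR and 268 TPM in RD shSKP2, and 288 TPM in JR1 shSCR and 411 TPM in JR1 shSKP2. In each line it was higher in the shSKP2 library, as were CHRNA1 and DOK7, and over the 4 libraries the list and DOK7 had the same order. MYOG, the myogenin gene, was at 31.6 and 58.4 TPM in RD and at 54.0 and 107 TPM in JR1, changes of 0.87 and 0.98 that stayed inside the limit as deposited and passed it at 1.28 and 1.27 with the short RNAs removed. CKM, for muscle creatine kinase, was at 2.92 and 6.65 TPM in RD and rose in JR1 from 5.01 to 36.7 TPM, and it also passed the limit in RD, at 1.44, without the short RNAs. PAX7, a marker of muscle stem cells, fell in both lines with a log2 change of -1.43 in each. The part of these markers in the values of the members was not tested, and in bulk RNA a change in the number of cells of a state cannot be told apart from a change per cell.

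Cells that could bring agrin or junction genes from outside the muscle lineage were looked for in the same way. Of 7 Schwann cell markers, 2 reached 1 TPM in each RD library and 3 in each JR1 library, where EGR2 was at 1.56 and 1.09 TPM. S100B was listed at 0 throughout and SOX10 did not exceed 0.110 TPM. The summed level of that list, 6.97 and 6.89 TPM in RD and 15.2 and 17.7 TPM in JR1, came mostly from ERBB3 and MBP. Of 7 motor neuron markers, 2 reached 1 TPM in each RD library and 1 in each JR1 library. The cholinergic genes CHAT, SLC5A7 and SLC18A3 were listed at 0 in all 4 libraries. TUBB3, which is not restricted to neurons, made up nearly all of that list at 228 to 347 TPM, and ISL1 went from 7.89 to 1.6 TPM in RD.

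The wider junction was followed in a list of 84 further genes in 6 roles, of which 61 were tested. In RD 8 of these fell 2-fold and 0 rose, and in JR1 5 fell and 0 rose, beside the shares of 7.37% and 9.05% lower given above. Their median was -0.24 in RD and -0.16 in JR1, close to the medians of all tested genes. At any size 35 of them were lower in both lines at once and 13 higher in both, beside 61.1% and 17% of all tested genes. The balance turned when the short RNAs were removed, with 19 of 67 lower and 39 higher in both lines, beside 31.9% and 43.7% of tested genes.

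Of the 61 tested genes of the list, 5 fell 2-fold in both lines, beside 4.79% of all tested genes. Matrix proteins of the synaptic cleft made up 3 of these 5. LAMA5, for the laminin α5 chain, was at 19.4 and 8.66 TPM in RD and at 44.01 and 5.16 TPM in JR1 (log2 -1.08 and -2.87). LAMB2, for the laminin β2 chain of the synaptic basal lamina, had changes of -1.05 and -1.08. HSPG2, for perlecan, a heparan sulfate proteoglycan like agrin, had changes of -1.11 and -1.39. The other 6 tested genes of this role stayed inside the limit, among them BCHE, for butyrylcholinesterase, at 0.12 and 0.56.

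In the postsynaptic scaffold DMD, for dystrophin, was the gene of 12 tested that fell 2-fold in both lines, at -1.12 and -1.21. SYNE1, for the nuclear envelope protein nesprin 1, had the highest mean of both lines at 0.56 and 0.64. Among genes of receptor glycosylation and assembly SLC25A1, the mitochondrial citrate carrier, fell in both lines (-1.48 and -1.17), and DPAGT1, which starts N-glycan synthesis, fell in RD at -1.16 and was at -0.63 in JR1. ALG2, a mannosyltransferase, was the highest of the 7 tested there at 0.28 and 0.15. With the short RNAs removed, none of the 5 genes passed the limit in both lines, and PDZRN3 (1.06 and 1.10) and ANK3 (1.35 and 1.91) were higher in both. ANK3 was near the floor and not tested as deposited, at 0.210 and 0.990 TPM in RD and 0.210 and 1.62 TPM in JR1. DPAGT1, ANK3 and ETV4 were named after their values were seen.

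Of 23 tested genes downstream of MuSK, 1 fell 2-fold in RD (TNS2, for tensin 2, at -1.14, with -0.81 in JR1) and 0 in JR1. PDZRN3, a ubiquitin ligase for MuSK, was the highest of them at 0.59 and 0.60, with 1.52 and 2.80 TPM in RD and 0.470 and 1.23 TPM in JR1. In the neuregulin and synaptic transcription role ETV4, an ETS factor, fell in RD at -1.02 and stood at -0.46 in JR1, while GABPA, the ETS factor known to bind the N-box of synaptic promoters, was at -0.78 and -0.76. ERBB3, a neuregulin receptor, was at 0.10 and 0.61. Among retrograde and guidance signals 3 of 13 genes were tested and 0 passed the limit, with WNT9A at 0.59 and -0.27 and BDNF at 0.073 and 0.069. Without the short RNAs TNS2, ETV4 and DPAGT1 were inside the limit in RD, at -0.78, -0.63 and -0.83, and WNT9A passed it at 1.02.

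Nicotinic subunits outside the muscle receptor were mostly low. Of 11 such genes, 2 were tested. CHRNA9 was at 6.88 and 6.66 TPM in RD and fell in JR1 from 13.7 to 6.13 TPM, a log2 change of -1.05. CHRNA5 was at 4.09 and 1.82 TPM in RD and at 2.0 and 0.580 TPM in JR1, with changes of -0.85 and -0.93. On removal of the short RNAs CHRNA9 was inside the limit in JR1 at -0.84 and CHRNA5 passed it at -1.09. The other 9 did not exceed 1.00 TPM in any library. In both RD libraries and in JR1 shSCR, CHRNA9 was thus above the fetal γ subunit gene of the same library. In JR1 shSKP2 CHRNA9 was below the γ gene, and no assembly with muscle subunits was measured.

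Genes with profiles most like CHRNA1 were found by the distance between log2(TPM + 1) values, centred on each gene's mean over the 4 libraries, among 8947 genes that averaged 5 TPM or more. The nearest 5 were RUNX1 (distance 0.0621), RIMS3 (0.0847), VGLL4 (0.109), TXNIP (0.121) and DHRS7 (0.140). RUNX1, a transcription factor, followed CHRNA1 with 21.6 and 33.8 TPM in RD and 31.7 and 45.5 TPM in JR1. For CHRNG the nearest 5 were AMIGO2 (0.122), DNAJB4 (0.127), SERINC2 (0.130), TBX18 (0.146) and CLDN12 (0.149). Each likeness rests on only 4 libraries and is a description.

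The windows before the starts of the most and the least abundant member are shown, since both genes belong to the same receptor and differ most in level. Sequences are from RefSeq (GRCh38.p14), which held windows for 6 of the 10 members in the tables used (CHRNA1, CHRNB1, CHRND, CHRNE, MUSK and DOK7). Each run is the 250 bases before the RefSeq transcript start, 5′ to 3′ on the strand of the gene. Capitals mark E-boxes (CANNTG, the word bound by MYOD and myogenin) and N-boxes (CCGGAA or its reverse complement TTCCGG, the word bound by GABP), which do not overlap in these windows. The CHRNA1 window is chr2:174764473-174764722 on the minus strand, and the CHRNE window is chr17:4903099-4903348 on the minus strand, which lies inside the listed span of CHRNE.
CHRNA1: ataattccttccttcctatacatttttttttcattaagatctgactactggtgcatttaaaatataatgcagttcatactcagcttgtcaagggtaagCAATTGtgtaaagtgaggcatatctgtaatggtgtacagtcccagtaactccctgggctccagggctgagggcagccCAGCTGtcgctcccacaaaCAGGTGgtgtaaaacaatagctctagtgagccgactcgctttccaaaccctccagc
CHRNE: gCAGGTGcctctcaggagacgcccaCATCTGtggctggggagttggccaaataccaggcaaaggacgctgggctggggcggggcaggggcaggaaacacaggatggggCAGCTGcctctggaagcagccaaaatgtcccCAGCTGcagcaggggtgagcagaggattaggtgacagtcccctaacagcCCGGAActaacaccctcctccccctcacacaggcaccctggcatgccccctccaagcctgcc

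The CHRNA1 window held 3 E-boxes and 0 N-boxes, and the CHRNE window 4 E-boxes and 1 N-box. The E-boxes nearest to the start of CHRNA1 were CAGGTG, from 56 to 51 bases before it, and CAGCTG, from 75 to 70 bases before it. In CHRNE the word CAGCTG stood from 142 to 137 and from 111 to 106 bases before the start, and the N-box from 62 to 57. Of 35116 windows of the same length, 10.4% had at least 3 E-boxes, 3.35% at least 4, and 14.5% at least 1 N-box. The windows of CHRNB1, MUSK and CHRND held 4, 3 and 1 E-boxes, those of DOK7 held 1 and 0, and CHRND also held 1 N-box, from 66 to 61 bases before its start. Both the highest and the lowest subunit gene thus had several E-boxes, and the match of a word says nothing about binding in these cells.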

How the data were processed

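RNA from RD and JR1 cells was collected by the authors with a column kit, selected for poly-A RNA, made into directional libraries and read as pairs of 150 bases. Reads were aligned with STAR 2.7.9a to GRCh38, and the authors deposited 1 TPM value per gene and library, estimated with RSEM 1.3.2. The annotation release and strand setting are not given in the sources used here. TPM hold no depth, so precision could not be computed.

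From these TPM, log2 ratios of TPM + 1 were computed between conditions of a line and between lines, with a minimum mean of 1 TPM and a limit of 2-fold. With 1 library per group no test was run. The members and lists were chosen with earlier results of these data known, and support nothing by themselves. The wider genes named were those past the limit in both lines or else the highest and lowest of a role by the mean of both lines. Other named genes were the markers given (some markers of the list are not reported here), the 5 nearest profiles of CHRNA1 and CHRNG, and genes on the opposite strand that overlap a member. The alternatives were 0.1 TPM added, centring on the median, removal of 671 short structural RNA genes by symbol, protein-coding genes only (RefSeq type, matched by symbol for 36588 of 39323 genes), no minimum, a minimum of 5 TPM and a limit of 1.5-fold. Coordinates are those in the deposited tables, and motif positions were found by exact match on both strands. The calculations were tested on simulated data. Python 3.11.15, numpy 2.4.6, pandas 2.3.3 and matplotlib 3.10.9 were used.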

Additional observations from a re-analysis of the deposited data

Results flagged for a closer look

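CHRNG, LRP4 and WNT9A had opposite signs in the lines. The log2 change with shSKP2 was 0.23 in RD and -0.077 in JR1 for CHRNG, the fetal γ subunit, and 0.078 in RD and -0.15 in JR1 for LRP4, the agrin receptor. WNT9A, a secreted Wnt ligand of the wider list, was at 0.59 in RD and -0.27 in JR1. Each sign rests on 1 library per condition, all 6 values are inside the 2-fold limit, and the difference between the lines was not tested. With the short structural RNAs removed, CHRNG was at 0.62 and 0.19 and LRP4 at 0.43 and 0.094, positive in both lines.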

How the results depend on the processing

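No paired analysis was possible because the comparisons come from no test, with 1 library on each side and no replicate numbers in the labels. A model over both lines with the line as a block was not run. With 1 library on each side, none was left out. The depth is unknown, and no limit of detection is given.

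The main count of changed members in RD, 1 (0 higher and 1 lower), was 2 with 0.1 TPM added or after centring (1 higher in each), 2 without short RNAs or with protein-coding genes only (2 higher and 0 lower in each), and 4 at 1.5-fold (2 higher and 2 lower). AGRN in RD was then at -0.96 without short RNAs and -0.94 with protein-coding genes only, and CHRNA1 at 1.08 and 1.10. DOK7 in RD was above the limit at 1.09 with 0.1 TPM added, 1.11 after centring, 1.33 without short RNAs and 1.39 with protein-coding genes only. In JR1 the count of 1 was 2 at 1.5-fold (2 lower).

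The median change of the members in RD was 0.35 after centring, 0.34 without short RNAs, 0.37 with protein-coding genes only and -0.0081 with no minimum. In JR1 it was 0.079, 0.13 and 0.12 under the first 3 of these, of the other sign than in the main setting. Signs of single members also turned under these 3 settings, in that order. CHRNB1 was at 0.038, 0.16 and 0.19 in RD and at 0.079, 0.15 and 0.13 in JR1. CHRNE was at 0.18, 0.076 and 0.098 in RD and at 0.19, 0.10 and 0.10 in JR1. RAPSN was at 0.15, 0.25 and 0.27 in RD. In JR1 CHRNG was at 0.14, 0.19 and 0.17 and LRP4 at 0.065, 0.094 and 0.076. CHRNA1, CHRND, AGRN, MUSK and DOK7 kept their signs in both lines under all of these settings.

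Of the wider list in RD, 8 changed genes became 1 after centring (1 lower), 5 without short RNAs (4 higher and 1 lower) and 20 at 1.5-fold (3 higher and 17 lower), and protein-coding genes only gave 6 higher and 1 lower. In JR1, 5 became 2 after centring (2 lower), 9 with protein-coding genes only (5 higher) and 17 at 1.5-fold (3 higher and 14 lower). There, 1 was higher with 0.1 TPM added, 2 with no minimum and 4 without short RNAs, with 3 lower in the last. Centring shifts all changes of a comparison by the same amount, by its construction. The removals multiplied all remaining TPM of a library by a common factor, and with 1 TPM added the changes shifted unequally by construction. CHRNE and DOK7 in RD, for example, shifted by different amounts. The cause of the other shifts was not tested.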

Other observations

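Genes beside AGRN were looked up after their values were seen. ISG15, an interferon-stimulated gene that ends 5561 bases before AGRN on the same strand, was at 647 and 70.2 TPM in RD and at 606 and 82.8 TPM in JR1. HES4, which lies 19049 bases from AGRN on the opposite strand, was at 41.0 and 14.8 TPM in RD and at 66.9 and 18.2 TPM in JR1. C1orf159, at 25703 bases beyond the other end of AGRN, was at 13.2 and 8.14 TPM in RD and at 10.0 and 6.61 TPM in JR1. LOC100288175, nearer to AGRN at 3614 bases, had log2 changes of -0.19 in RD and -0.51 in JR1. LOC105378948 and RNF223, both below 1 TPM in every library, were at -0.13 and -0.079 and at 0.26 and 0.25. ISG15 and HES4 passed the 2-fold limit downwards in both lines, as AGRN and 4.79% of all tested genes did. The part of position in these values was not tested.

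CHRND and CHRNG are neighbours on the same strand, yet their changes differed, with -0.76 against 0.23 in RD and -0.60 against -0.077 in JR1. EIF4E2, the next gene after CHRNG on that strand, was at 35.4 and 44.8 TPM in RD and at 24.6 and 51.6 TPM in JR1, so that the 3 genes of this stretch did not move alike. This comparison was also made after the values were seen.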
